A study of Mus musculus with 2 samples.

Results

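Transcripts of 10 genes that encode parts of the basement membrane were measured in mitral valves of mice carrying a fibrillin-1 mutation and of WT mice. The genes were taken by symbol from the deposited table: the collagen IV chains Col4a1 to Col4a6, the collagens Col15a1 and Col18a1, the proteoglycan gene Hspg2 and the nidogen gene Nid1. All 10 were found among the 33640 genes listed, and all 10 averaged at least 1 TPM. TPM estimates transcript abundance as a share of all transcripts in a library, corrected for transcript length. The mutant mice had the genotype Fbn1 C1039G/+ (the mutant pool below) and were compared with WT mice, both at 5 months of age. Mitral valve tissue of 8 hearts was pooled for each genotype, with males and females mixed, and each pool gave 1 library. The allele is present in every cell of the mutant animals, in 1 of the copies of Fbn1, and models Marfan syndrome. The strain, the number of animals of each sex and the part of the valve taken were not given in the sources used here.

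Basement membranes are thin sheets of matrix that underlie endothelium and wrap muscle, fat and nerve sheath cells. They are built from a laminin network at the cell surface and a collagen IV network beneath it, joined by nidogen and by the heparan sulfate proteoglycan perlecan. In a heart valve such a sheet underlies the endothelium that covers the leaflets, while most of the leaflet is interstitial matrix made by mesenchymal cells. Collagen IV is secreted as trimers, and the chains fall into pairs of neighbouring genes. Col4a1 and Col4a2 make the trimer of nearly all basement membranes, Col4a3, Col4a4 and Col4a5 make that of the kidney filter, and Col4a5 with Col4a6 makes one found around smooth muscle and under some epithelia.

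With 1 library for each genotype there is no replicate check, no error and no test, and each difference is between these 2 pools. Differences are given as log2(TPM + 1), Fbn1 C1039G/+ minus WT, a scale that understates the difference of low genes, and a gene was counted as 2-fold different when this was at least 1 in size. The TPM values added up to 999945 in the Fbn1 C1039G/+ pool and 999964 in the WT pool, and the depth behind them is unknown. Most genes lay slightly above 0, with a median difference of 0.14 over the 17004 genes averaging at least 1 TPM and 0.11 over the 10145 genes averaging at least 10 TPM. The second value is used below as the general shift. Fbn1 itself was at 126 TPM in the Fbn1 C1039G/+ pool and 108 TPM in the WT pool, which does not check the labels, since the allele changes an amino acid. Markers of valve mesenchyme were abundant in both, with none of 12 at 0, a sum of 18850 TPM in the Fbn1 C1039G/+ pool and 19038 TPM in the WT pool, and Dcn (9304 TPM mutant, 11409 TPM WT) and Vim (3167 TPM mutant, 2797 TPM WT) at their head. Dcn makes up much of each sum, so the sums say little about the other markers. Postn (2263 TPM mutant, 1269 TPM WT) and Tbx20 (1253 TPM mutant, 703 TPM WT) were higher in the mutant pool. Lum (872 TPM mutant, 1213 TPM WT) was lower in it. Cardiac muscle markers were also present, with sums of 1905 TPM in the Fbn1 C1039G/+ pool and 2353 TPM in the WT pool.

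The 6 genes of collagen IV lie in 3 head-to-head pairs, in which each gene is read away from its partner, so the start regions of the chains are shown here before their values. In GENCODE M21 (mm10) Col4a1 is on chromosome 8 from 11198423 to 11312826 on the minus strand, and Col4a2 is on the same chromosome from 11312805 to 11449287 on the plus strand. Their first exons overlap by 22 bases on opposite strands. Whether reads were assigned by strand was not given in the sources used here, so reads from this short stretch may not be told apart. Col4a4 (chromosome 1, 82448423 to 82586849, minus strand) and Col4a3 (chromosome 1, 82586921 to 82722059, plus strand) have 71 bases between their starts. Col4a6 (chromosome X, 141165403 to 141474076, minus strand) and Col4a5 (chromosome X, 141475385 to 141689234, plus strand) have 1308 bases between theirs.

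The following windows run from 250 bases before to 50 bases after the RefSeq start of each gene (GRCm38.p6, the mm10 genome), 5′ to 3′ on the strand of the gene. RefSeq windows were found for 9 of the 10 genes, 10 windows in all, and the entry for Col4a3 was missing. Capitals mark the letters GGGCGG, the core of the GC box, and CCAAT, on either strand, and the letters of these 2 motifs do not overlap in the windows shown. They are shown because the genes of a pair lie next to each other and are read in opposite directions, and the ratio of the paired transcripts is given below.
Col4a1, chr8:11312777-11313076, minus strand: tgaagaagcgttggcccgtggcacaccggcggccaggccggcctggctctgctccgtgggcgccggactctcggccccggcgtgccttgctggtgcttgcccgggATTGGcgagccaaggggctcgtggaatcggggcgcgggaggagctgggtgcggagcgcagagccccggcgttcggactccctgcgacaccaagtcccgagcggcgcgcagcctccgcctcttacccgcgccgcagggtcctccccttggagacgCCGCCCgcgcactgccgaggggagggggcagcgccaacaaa
Col4a2, chr8:11312555-11312854, plus strand: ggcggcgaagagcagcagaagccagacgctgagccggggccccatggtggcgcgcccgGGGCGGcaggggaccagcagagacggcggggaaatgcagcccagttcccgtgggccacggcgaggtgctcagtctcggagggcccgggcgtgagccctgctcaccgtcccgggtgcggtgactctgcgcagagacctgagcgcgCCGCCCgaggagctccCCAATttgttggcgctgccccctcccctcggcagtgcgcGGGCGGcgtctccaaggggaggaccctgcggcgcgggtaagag
Col4a4, chr1:82586800-82587099, minus strand: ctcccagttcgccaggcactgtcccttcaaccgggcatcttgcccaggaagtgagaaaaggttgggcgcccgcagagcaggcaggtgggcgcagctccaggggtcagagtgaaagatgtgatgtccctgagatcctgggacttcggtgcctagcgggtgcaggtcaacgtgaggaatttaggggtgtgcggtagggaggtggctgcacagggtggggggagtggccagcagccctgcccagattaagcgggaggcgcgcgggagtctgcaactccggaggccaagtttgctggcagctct
Col4a6, chrX:141474027-141474326, minus strand: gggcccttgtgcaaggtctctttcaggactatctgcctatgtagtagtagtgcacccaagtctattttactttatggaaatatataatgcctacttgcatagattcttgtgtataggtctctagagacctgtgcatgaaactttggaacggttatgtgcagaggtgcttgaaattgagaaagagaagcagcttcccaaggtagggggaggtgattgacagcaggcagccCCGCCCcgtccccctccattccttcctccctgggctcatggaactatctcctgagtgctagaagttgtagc
Col4a5, chrX:141475169-141475468, plus strand: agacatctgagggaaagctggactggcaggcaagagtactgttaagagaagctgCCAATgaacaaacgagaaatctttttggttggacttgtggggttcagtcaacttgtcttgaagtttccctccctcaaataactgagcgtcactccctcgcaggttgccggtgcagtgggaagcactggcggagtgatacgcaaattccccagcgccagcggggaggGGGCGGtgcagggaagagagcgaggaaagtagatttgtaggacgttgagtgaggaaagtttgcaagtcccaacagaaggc

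The Col4a1 and Col4a2 windows share 78 bases, from 11312777 to 11312854, as reverse complements of each other. A GGGCGG match at 11312812 to 11312817 lies in both windows, 9 bases after the start of Col4a1 and 7 bases after that of Col4a2. Both windows were rich in G and C, at 74.0% for Col4a1 and 73.7% for Col4a2, against a median of 52.7% over all 32851 windows of this length. The window of Col4a4 covers the annotated start of Col4a3, 72 bases before its own start, holds no match to either motif, and has 63.3% G and C. The Col4a5 window (52.7% G and C) has 1 GGGCGG match and 1 CCAAT match, and the Col4a6 window (48.3%) has 1 GGGCGG match. Of all windows, 35.7% held GGGCGG and 37.4% held CCAAT on either strand, against 7 and 5 of the 10 windows of the basement membrane genes. The letters TATAAA were in none of the 10 and in 13.6% of all windows. The match shared by the Col4a1 and Col4a2 windows is the only GC box match of the Col4a1 window and was counted for both. The windows of all genes were not matched to these 10 for G and C, so the shares are not a like comparison. A match describes the letters of the window, not binding.

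All 10 genes had more TPM in the Fbn1 C1039G/+ pool than in the WT pool, by small amounts, and none reached a 2-fold difference. A difference above 0 was found for 64.9% of the 17004 genes measured, and a difference above the general shift, which 8 of the 10 had, for 53.5%. At least 2-fold higher were 4.81% of those genes and at least 2-fold lower 1.72%, so that a count of 0 among 10 genes is near the background. The median difference of the 10 was 0.22, against 0.14 over all genes measured and 0.12 over the 9434 genes within their range of mean TPM, from 9.29 to 128. The interquartile range of those 9434 genes was −0.09 to 0.37. The summed level of the 10 was 529 TPM in the Fbn1 C1039G/+ pool and 445 TPM in the WT pool, a ratio of 1.19. The direction depended on the scaling for the genes with the smallest differences: centred on the general shift, Nid1 (−0.11) lay below 0 and Col4a6 at −0.00039, and under quantile normalization Nid1 (−0.12), Col4a6 (−0.04) and Col4a4 (−0.02) lay below 0. With mitochondrial, ribosomal protein, globin, Gm and Rik genes left out of the total, Nid1 (−0.05) lay below 0 and the other 9 above it.

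**Figure D1:**
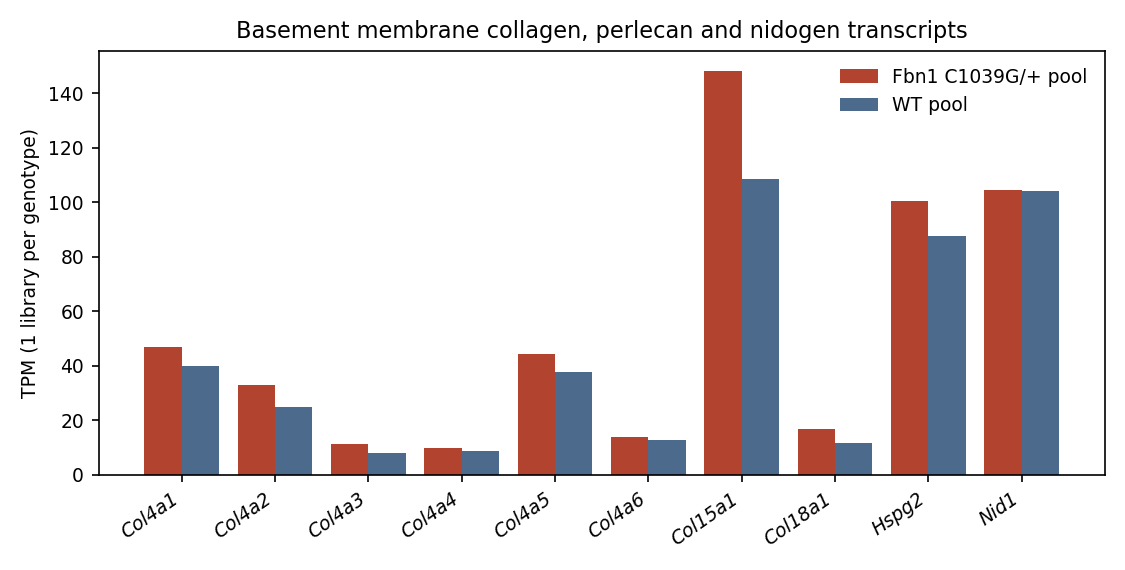
Levels of the 10 basement membrane genes, in TPM, in the Fbn1 C1039G/+ pool (red bars) and the WT pool (blue bars), 1 library each and therefore without error bars. Col15a1, Nid1 and Hspg2 stand at 87.7 to 148 TPM, and no collagen IV chain exceeds 46.8 TPM.

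The collagen IV chains together had 159 TPM in the Fbn1 C1039G/+ pool and 132 TPM in the WT pool, a ratio of 1.20. Col4a1 was at 46.8 TPM in the Fbn1 C1039G/+ pool and 40.0 TPM in the WT pool, a difference of 0.22. Col4a2, its partner, was at 32.9 TPM in the Fbn1 C1039G/+ pool and 25.1 TPM in the WT pool, a difference of 0.38. Both chains of the common trimer were thus a little higher in the mutant pool, and Col4a1 had more TPM than Col4a2 in each. In the spread of the 500 genes nearest in mean TPM, the difference of Col4a1 lay at percentile 63.6 and that of Col4a2 at percentile 78.6.

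Of the chains of the kidney-type network, Col4a3 and Col4a4 were expressed at lower levels than Col4a1 and Col4a2. The remaining chain, Col4a5, is given below and was close to Col4a1 in level. Col4a3, which in humans is a gene of Alport syndrome and carries the Goodpasture antigen, was at 11.3 TPM in the Fbn1 C1039G/+ pool and 7.86 TPM in the WT pool, a difference of 0.47. Col4a4, its head-to-head neighbour, was at 9.80 TPM in the Fbn1 C1039G/+ pool and 8.77 TPM in the WT pool, a difference of 0.14. Col4a3 had the larger difference of this pair, at percentile 76.6 of its 500 neighbours in abundance, while Col4a4 lay at percentile 47.0. Genes at this level varied widely between the pools, and the central 95% of the 500 genes around Col4a3 ran from −0.71 to 1.16.

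Col4a5, the X-linked chain whose mutations cause most Alport syndrome in humans, was at 44.2 TPM in the Fbn1 C1039G/+ pool and 37.9 TPM in the WT pool, a difference of 0.22. Its level was close to that of Col4a1 in both pools. Col4a6, its neighbour, was at 14.0 TPM in the Fbn1 C1039G/+ pool and 12.9 TPM in the WT pool, a difference of 0.11 that equals the general shift to 2 decimals. These 2 genes are on the X chromosome and the pools mixed sexes. The Y-linked genes Ddx3y, Eif2s3y, Kdm5d and Uty summed to 143 TPM in the Fbn1 C1039G/+ pool and 101 TPM in the WT pool, all 4 higher in the mutant pool, and their part in the values of Col4a5 and Col4a6 was not tested. Processed pseudogenes lie within the bounds of both genes on mm10, introns included, and all of them had more TPM in the mutant pool. Among them are Gm15268 in Col4a5 (22.2 TPM mutant, 12.2 TPM WT) and Gm15079 in Col4a6 (14.3 TPM mutant, 3.62 TPM WT). Whether they overlap exons was not checked, so their bearing on the values of Col4a5 and Col4a6 is unknown.

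As shares of all collagen IV TPM, the chains kept nearly the same order in both pools. Col4a1 made up 29.4% in the Fbn1 C1039G/+ pool and 30.2% in the WT pool. Col4a5 made up 27.8% in the Fbn1 C1039G/+ pool and 28.6% in the WT pool, and Col4a2 20.7% in the Fbn1 C1039G/+ pool and 18.9% in the WT pool. Col4a6 came next with 8.79% in the Fbn1 C1039G/+ pool and 9.72% in the WT pool. At the low end Col4a3 was above Col4a4 in the Fbn1 C1039G/+ pool, at 7.09% and 6.16%, and below it in the WT pool, at 5.94% and 6.62%. No share differed by more than 1.78 percentage points between the pools. These shares do not depend on the scaling of a library as a whole.

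**Figure D2:**
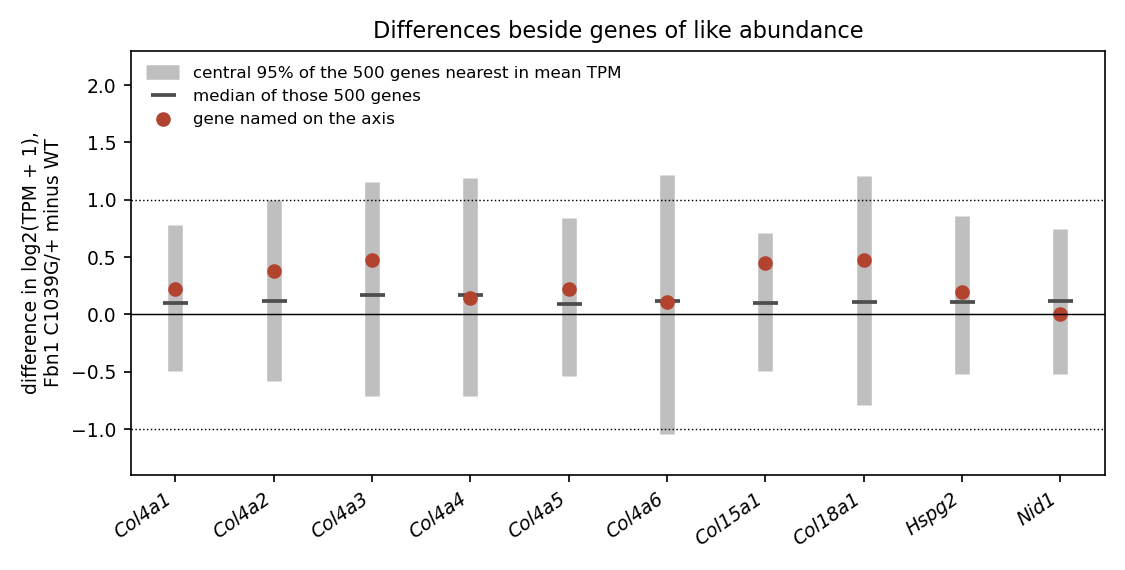
Difference in log2(TPM + 1), Fbn1 C1039G/+ minus WT, for each of the 10 genes (red points), with the central 95% (grey bars) and the median (dark dashes) of 500 genes of nearest abundance, and dotted lines at 2-fold. Every point lies inside its grey bar, with Col15a1 at the highest percentile, 86.8, and Nid1 at the lowest, 33.0.

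The collagens that carry an endostatin-type domain at the carboxyl end had the largest difference of the 3 groups by role, with a sum of 165 TPM in the Fbn1 C1039G/+ pool and 120.3 TPM in the WT pool, a ratio of 1.37. Col15a1 encodes collagen XV, which ties basement membranes to the interstitial matrix around muscle and small vessels. It was the most abundant of the 10 genes in both pools, at 148 TPM in the Fbn1 C1039G/+ pool and 109 TPM in the WT pool, a difference of 0.45 at percentile 86.8 of its neighbours in abundance. Col18a1 encodes collagen XVIII, the source of endostatin, and was at 16.8 TPM in the Fbn1 C1039G/+ pool and 11.8 TPM in the WT pool, a difference of 0.48 at percentile 80.0. The 2 genes thus differed by a like amount at levels 8.81-fold apart in the Fbn1 C1039G/+ pool and 9.20-fold apart in the WT pool. Col15a1 lies on chromosome 4 from 47208161 to 47313167 on the plus strand. Col18a1 lies on chromosome 10 from 77052178 to 77166548 on the minus strand, has 2 RefSeq start windows, and overlaps 8825 bases of Slc19a1 on the other strand. Slc19a1 was at 6.95 TPM in the Fbn1 C1039G/+ pool and 7.01 TPM in the WT pool. Values for the separate Col18a1 forms were not analysed here.

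Perlecan and nidogen-1, the linkers between the laminin and collagen IV sheets, differed least as a group, with a ratio of summed TPM of 1.07. Hspg2, which encodes perlecan, was at 100.5 TPM in the Fbn1 C1039G/+ pool and 87.7 TPM in the WT pool, a difference of 0.19 at percentile 63.0. Its longest annotated transcript, of 14187 bases on chromosome 4 (137468769 to 137570630, plus strand), is the longest among the 10 genes. Nid1, which encodes the glycoprotein that binds both laminin and collagen IV, was at 104.3 TPM in the Fbn1 C1039G/+ pool and 104.1 TPM in the WT pool, a difference of 0.0030 at percentile 33.0 (chromosome 13, 13437551 to 13512269, plus strand). Nid1 was therefore the 1 gene of the 10 whose TPM values, as deposited, were nearly the same. Centred on the general shift it was the lowest of the 10, at −0.11, and Col4a6 lay nearest to 0. The linkers and Col15a1 were more abundant than any collagen IV chain in both pools.

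Ratios inside a library showed how related transcripts stood to each other in each pool. Col4a1 over Col4a2 was 1.42 in the Fbn1 C1039G/+ pool and 1.59 in the WT pool, a log2 ratio of ratios of −0.17. Col4a3 over Col4a4 was 1.15 in the Fbn1 C1039G/+ pool and 0.897 in the WT pool (0.36), which became 0.24 with a pseudocount of 5. Col4a5 over Col4a6 was 3.16 in the Fbn1 C1039G/+ pool and 2.94 in the WT pool (0.10). The order of the chains within a pair was thus the same in both pools for Col4a1 with Col4a2 and Col4a5 with Col4a6, and opposite for Col4a3 with Col4a4. Col15a1 over Col18a1 had a log2 ratio of ratios of −0.06, which became 0.05 with a pseudocount of 5. Nid1 over Nid2, the second nidogen, was 11.3 in the Fbn1 C1039G/+ pool and 14.5 in the WT pool (−0.36), and the log2 ratio of ratios became −0.22 with a pseudocount of 5. Hspg2 over Agrn, the gene of the related proteoglycan agrin, was 1.70 in the Fbn1 C1039G/+ pool and 1.40 in the WT pool (0.28).

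**Figure D3:**
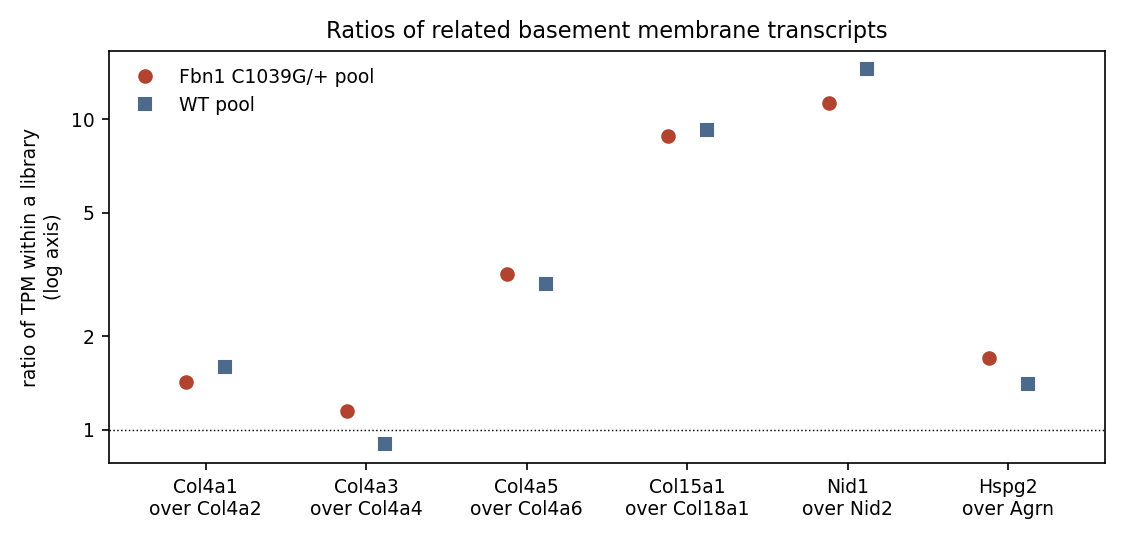
Ratio of TPM of the 2 genes named under each position, on a log axis, in the Fbn1 C1039G/+ pool (red circles) and the WT pool (blue squares). The Col4a3 over Col4a4 ratio is 1.15 in the mutant pool and 0.897 in the WT pool, on either side of the dotted line at 1.

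The laminins, whose network collagen IV underlies, spread more widely than the 10 genes. Of 11 laminin chain genes 9 had a mean TPM of at least 1, none was 2-fold different, and their median difference was 0.18. Lamb2, the most abundant beta chain, was at 144 TPM in the Fbn1 C1039G/+ pool and 127 TPM in the WT pool, and Lamc1, the common gamma chain, at 130 TPM in the Fbn1 C1039G/+ pool and 95.5 TPM in the WT pool. Lama4, the alpha chain of vessel walls, was at 106 TPM in the Fbn1 C1039G/+ pool and 76.2 TPM in the WT pool, and Lama2, the alpha chain of muscle and nerve, at 92.1 TPM (mutant) and 76.3 TPM (WT). Lamb3 was at 88.2 TPM in the Fbn1 C1039G/+ pool and 49.3 TPM in the WT pool, a difference of 0.83 at percentile 98.0. Lama5, an alpha chain of mature endothelium and epithelium, was at 9.19 TPM in the Fbn1 C1039G/+ pool and 15.3 TPM in the WT pool, a difference of −0.68 at percentile 2.80. Among the alpha chains Lama5 made up 4.41% of the TPM in the Fbn1 C1039G/+ pool and 8.99% in the WT pool, and Lama4 51.0% in the Fbn1 C1039G/+ pool and 44.8% in the WT pool.

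Other proteins of the sheet went in both directions. Of 12 genes 9 were measured, with a median difference of 0.30, 6 above 0 and 1 at least 2-fold lower. Over all genes measured 64.9% were above 0, the share to set beside the counts of this list and the lists that follow. That gene was Egflam, which encodes pikachurin, a ligand of dystroglycan, at 3.96 TPM in the Fbn1 C1039G/+ pool and 9.89 TPM in the WT pool, a difference of −1.13. Npnt, the gene of the integrin ligand nephronectin, was at 19.7 TPM in the Fbn1 C1039G/+ pool and 30.7 TPM in the WT pool, a difference of −0.61 at percentile 1. Tinagl1, a matrix protein gene, was at 40.5 TPM in the Fbn1 C1039G/+ pool and 24.2 TPM in the WT pool, a difference of 0.72. The abundant Agrn was at 59.0 TPM in the Fbn1 C1039G/+ pool and 62.6 TPM in the WT pool, and Ntn4, a netrin that binds laminin, at 52.3 TPM (mutant) and 48.1 TPM (WT).

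Receptors of the basement membrane had a median difference of 0.03, with 5 of 10 above 0 and none 2-fold different, and −0.08 when centred on the general shift, −0.13 under quantile normalization and −0.017 with abundant and predicted genes left out of the total. The integrin gene Itga6, a laminin receptor, was at 195 TPM in the Fbn1 C1039G/+ pool and 141 TPM in the WT pool. Itgb1, its beta partner, was at 199.8 TPM in the Fbn1 C1039G/+ pool and 173 TPM in the WT pool. Itga1, whose integrin binds collagen IV, was at 22.5 TPM in the Fbn1 C1039G/+ pool and 17.4 TPM in the WT pool, a difference of 0.35. Itga6, Itgb1 and Itga1 are among the 5 above 0, and 6 of the 10 lay below the general shift. The lowest difference of the list was that of Itga3, −0.31 (10.2 TPM mutant, 12.9 TPM WT).

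Genes for folding, crosslinking and secretion of collagen IV had a median difference of 0.18, with 13 of 16 above 0, 10 above the general shift and none 2-fold different. Many of these enzymes also act on fibrillar collagens. Sparc, a collagen-binding protein that helps collagen IV assemble, was at 2030 TPM in the Fbn1 C1039G/+ pool and 1506 TPM in the WT pool. P3h1, a prolyl 3-hydroxylase, was at 43.3 TPM in the Fbn1 C1039G/+ pool and 25.3 TPM in the WT pool, the largest difference of the list at 0.75. The lysyl hydroxylase gene Plod2 was at 196 TPM in the Fbn1 C1039G/+ pool and 144 TPM in the WT pool, and the cyclophilin gene Ppib at 241 TPM (mutant) and 263 TPM (WT). Pxdn, the peroxidase that forms the sulfilimine bond between collagen IV trimers, was at 40.3 TPM in the Fbn1 C1039G/+ pool and 32.7 TPM in the WT pool, a difference of 0.29.

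Enzymes that can cut the basement membrane had a median difference of 0.14, with 7 of 10 measured genes above 0 and none 2-fold different. The gelatinase gene Mmp2 was at 374 TPM in the Fbn1 C1039G/+ pool and 338 TPM in the WT pool, and the cathepsin gene Ctsl at 317 TPM (mutant) and 345 TPM (WT). Mmp3, stromelysin-1, was at 136 TPM in the Fbn1 C1039G/+ pool and 90.9 TPM in the WT pool, a difference of 0.58. Htra1, a secreted serine protease gene, was at 32.5 TPM in the Fbn1 C1039G/+ pool and 53.0 TPM in the WT pool, a difference of −0.69 at percentile 1.20. Elane, the neutrophil elastase gene, was listed at 0 in both.

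**Figure D4:**
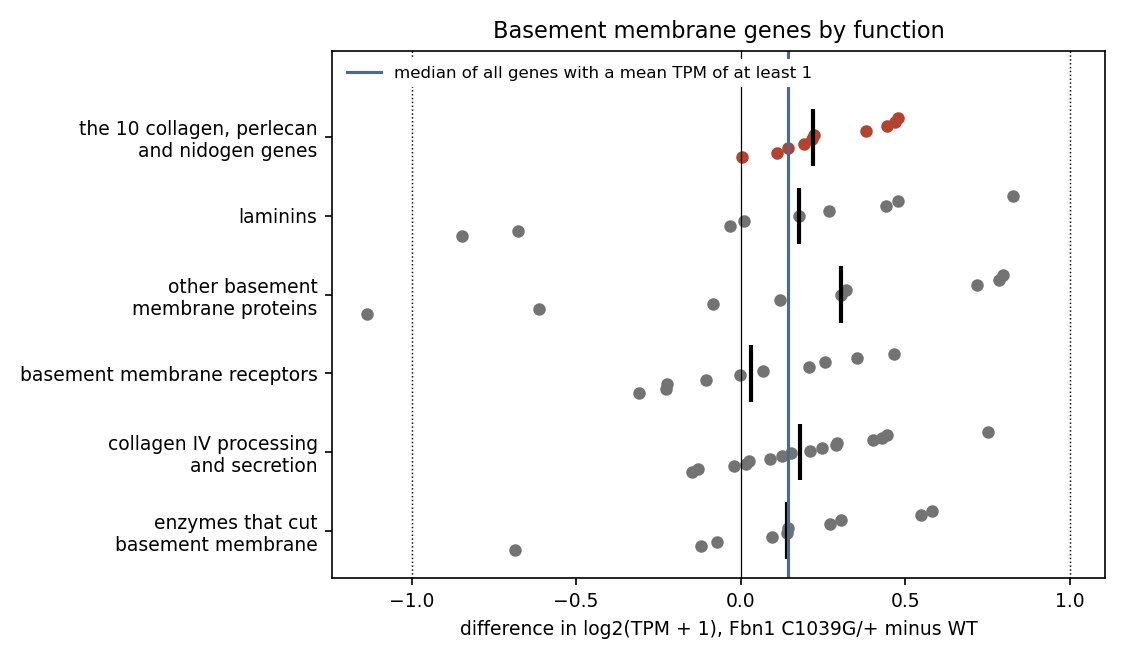
Difference in log2(TPM + 1), Fbn1 C1039G/+ minus WT, of each measured gene (points) in the basement membrane lists, with the median of each list (black bars), the median of all genes (blue line, 0.14) and dotted lines at 2-fold. The 10 collagen, perlecan and nidogen genes span 0.0030 to 0.48, whereas the laminins span −0.85 to 0.83.

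Markers of cells that make basement membranes did not all lie in the direction of the 10 genes. The counts of markers here and in the next paragraph are to be read beside the shares over all genes measured. Of those genes, 64.9% were higher in the mutant pool and 53.5% lay above the general shift. At least 2-fold higher were 4.81% and at least 2-fold lower 1.72%. In tissue pools, fewer cells of a type and less RNA per cell cannot be told apart. Of 12 endothelial markers 2 were higher in the mutant pool, none was at 0, and their sum was 942 TPM in the Fbn1 C1039G/+ pool and 982 TPM in the WT pool, with Pecam1 at 241 TPM (mutant) and 223 TPM (WT) and Egfl7 at 204 TPM (mutant) and 238 TPM (WT). Of 6 lymphatic endothelial markers 1 was higher (Lyve1, 58.8 TPM in the Fbn1 C1039G/+ pool and 44.7 TPM in the WT pool) and the sum was 197 TPM in the Fbn1 C1039G/+ pool and 354 TPM in the WT pool, with Ccl21a (94.3 TPM mutant, 244 TPM WT) the most abundant in both. At least 2-fold lower were 3 of the 6, Ccl21a among them. Pericyte and smooth muscle markers summed to 520.1 TPM in the Fbn1 C1039G/+ pool and 460.05 TPM in the WT pool, with 4 of 9 measured genes higher. Rgs5 (268 TPM mutant, 186 TPM WT) and Acta2 (102 TPM mutant, 89.9 TPM WT) led that list. Rgs5 makes up much of each sum, so the sums say little about the other markers. The median difference of the list was −0.08, and 5 of the 9 lay below the general shift, among them Pdgfrb (51.2 TPM mutant, 70.8 TPM WT).

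Of 12 valve mesenchyme markers 7 were higher in the mutant pool, and of 10 cardiac muscle markers 3 were. The most abundant cardiac markers, Tnnt2 (506 TPM mutant, 744 TPM WT) and Actc1 (535 TPM mutant, 673 TPM WT), were lower in the mutant pool. Nppa (179 TPM mutant, 117 TPM WT) was among the 3 higher, and its difference of 0.61 was the largest of the list in size. Schwann cell markers, led by S100b (39.7 TPM in the Fbn1 C1039G/+ pool and 53.8 TPM in the WT pool) and Cdh19 (13.0 TPM mutant, 12.7 TPM WT), had 1 of 5 measured genes higher and a sum of 61.3 TPM in the Fbn1 C1039G/+ pool and 75.2 TPM in the WT pool. Adipocyte markers were low, with Lep at 0 in both pools, Adipoq at 0 TPM (mutant) and 0.151 TPM (WT), and a sum of 20.3 TPM in the Fbn1 C1039G/+ pool and 17.1 TPM in the WT pool, mostly Lipe (14.0 TPM mutant, 10.5 TPM WT) and Plin4 (4.79 TPM mutant, 4.32 TPM WT). Macrophage markers had 8 of 9 genes higher, 7 of them above the general shift, and a sum of 2489 TPM in the Fbn1 C1039G/+ pool and 2092 TPM in the WT pool, with Lyz2 at 1587 TPM (mutant) and 1288 TPM (WT) and C1qb at 308 TPM (mutant) and 280.2 TPM (WT). Neutrophil markers had 5 of 6 measured genes higher, 4 of them at least 2-fold, and a sum of 103.4 TPM in the Fbn1 C1039G/+ pool and 17.3 TPM in the WT pool, with S100a9 at 48.0 TPM (mutant) and 2.34 TPM (WT), Cxcr2 at 18.0 TPM (mutant) and 6.43 TPM (WT), and Ly6g listed at 0 in both. The part of these cell types in the values of the 10 genes was not tested.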

How the data were processed

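RNA of 1 pool of 8 mitral valves per genotype was amplified (Ovation RNAseq v2) and made into Nextera XT libraries, per the labels' protocols. The authors deposited 1 TPM value per gene symbol and library, per the file header. The submitters' processing notes name Trimmomatic, HISAT2, kallisto and mm10. Their versions and roles, the annotation and the summing over transcripts were not given in the sources used here. Amplified reads are not independent molecules, and TPM keeps no depth, so no interval or detection limit was computed.

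From the deposited values, the difference was log2(TPM + 1) in the Fbn1 C1039G/+ pool minus that in the WT pool (Python 3.11.15, pandas 2.3.3), over genes averaging at least 1 TPM. No test was possible with 1 library per genotype. A percentile is the rank of a difference among 500 genes of nearest mean TPM. A check of the code put known differences, without noise, into a copy of the WT values and recovered them. It says nothing of the spread between pools. The members and lists were chosen with earlier results of these data known. All 10 members are named. From each of the 5 pathway lists the rule named the 2 most abundant genes, the 2 with the largest difference at a mean TPM of at least 5 and every gene past 2-fold, and from each of the 9 cell type lists the 2 most abundant and those at 0 in both pools. Lama2, Lama4, Npnt, Pxdn, Nid2, Lyve1, Adipoq, Lama3, Col7a1, Mmp9, Itga3, Postn, Tbx20, Lum, Pdgfrb, Nppa, the Y-linked genes and genes overlapping a member are named outside this rule, some after their values were seen. The 7 alternatives were pseudocounts of 0.1 and 5, no filter, a minimum mean of 5 TPM, centring on the general shift, quantile normalization, and a total without mitochondrial, ribosomal protein, globin, Gm and Rik genes. Coordinates are from GENCODE M21 and start windows from RefSeq (GRCm38.p6). Protein sequences were not used here, and some items that the rule takes are not reported here.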

Additional observations from a re-analysis of the deposited data

How the results depend on the processing

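No member was 2-fold different under any of the 7 alternatives. Their median difference was 0.11 centred on the median and 0.092 under quantile normalization, against medians of 0.032 and −0.014 over all genes, and the number of members above 0 was 8 when centred, 7 under quantile normalization, 9 with abundant and predicted genes left out and 10 under the other 4. Genes at least 2-fold higher and lower over the table numbered 1264 and 464 with a pseudocount of 0.1, 209 and 87 with a pseudocount of 5, 360 and 103 at a mean TPM of at least 5, and 540 and 462 under quantile normalization, and 499 were higher with abundant and predicted genes left out. When centred, the list medians were 0.066 for laminins, 0.19 for other basement membrane proteins, −0.078 for receptors (−0.017 with abundant and predicted genes left out), 0.070 for processing and 0.031 for cutting enzymes. Under quantile normalization they were 0.15 for other basement membrane proteins, −0.13 for receptors, 0.050 for processing and 0.038 for cutting enzymes. The laminin median was 0.016 with no filter, and that of other basement membrane proteins 0.12 at a mean TPM of at least 5. Lama3 was the 1 laminin past 2-fold with a pseudocount of 0.1 (−1.41), under quantile normalization (−1.04) and with abundant genes left out (−1.01). Of other basement membrane proteins, 2 were past 2-fold with a pseudocount of 0.1 (Egflam and Col7a1) and 0 with a pseudocount of 5. Mmp9 was the 1 cutting enzyme past 2-fold with no filter (1.05) and with abundant genes left out (1.24). The cause of these shifts was not tested. Depth is unknown, and low genes are the least certain. No paired analysis was possible because each genotype has 1 library.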

Other observations

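Lamb3, a laminin beta chain best known from epithelia, was well above Lama3, an alpha chain it pairs with there, in both pools. Lamb3 was at 88.2 TPM in the Fbn1 C1039G/+ pool and 49.3 TPM in the WT pool, and Lama3 at 0.725 TPM in the Fbn1 C1039G/+ pool and 2.10 TPM in the WT pool. Lamb3 made up 36.2% of all beta chain TPM in the Fbn1 C1039G/+ pool and 26.2% in the WT pool.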
